A study of Mus musculus with 11 samples.

Results

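The 10 genes described here encode the subunits of the protein complexes that start an autophagosome. They were chosen by name, as the subunits of the ULK1 complex (Ulk1, Ulk2, Rb1cc1, Atg13 and Atg101) and of the class III phosphatidylinositol 3-kinase (VPS34) complexes (Pik3c3, Pik3r4, Becn1, Atg14 and Uvrag), and are 10 of the 56748 genes in the count table. All 10 had a row, and all passed the filter on low counts. Their RNA was counted in CD4 T cells of mouse liver after 5 weeks of carbon tetrachloride (CCl4), a toxin that leads to liver fibrosis. There were 11 libraries, 6 of the genotype ATG5TLymph-/-, in which T lymphocytes have lost Atg5 (called Atg5-deficient here), and 5 of wildtype mice, which the design text gives as ATG5fl/fl, with the floxed gene undeleted. Both genotypes received CCl4, so no library shows the uninjured liver. The promoter that drives the deletion and the age and sex of the mice are not stated in the labels. Separate mice are not named for the libraries, and the p-values therefore describe the spread among these samples, which may be technical.

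Autophagy delivers cytoplasm to the lysosome in a double membrane, the autophagosome. The ULK complex receives the signal: mTORC1 restrains the kinases ULK1 and ULK2 when nutrients are plentiful, and AMPK can activate ULK1 when energy is low. Active ULK complexes switch on VPS34, a lipid kinase that marks membranes with phosphatidylinositol 3-phosphate (PI3P). Proteins that bind PI3P then bring the ATG12-ATG5-ATG16L1 machinery, so ATG5, the protein deleted here, acts after the ULK complex and the VPS34 complex that holds ATG14. T cells use autophagy to limit mitochondria and to survive, and depend on VPS34 for endosomal traffic as well.

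Ulk1 had the smallest p of the 10 genes between genotypes, and the stretches upstream of the start sites of Ulk1 and its paralog Ulk2 are shown for that reason. Each is the 250 bases before the RefSeq start site (GRCm38.p6), 5′ to 3′ on the strand of the gene, at chr5:110810082-110810331 for Ulk1 and chr11:61855093-61855342 for Ulk2, both on the minus strand. Capitals mark a GC box.
Ulk1: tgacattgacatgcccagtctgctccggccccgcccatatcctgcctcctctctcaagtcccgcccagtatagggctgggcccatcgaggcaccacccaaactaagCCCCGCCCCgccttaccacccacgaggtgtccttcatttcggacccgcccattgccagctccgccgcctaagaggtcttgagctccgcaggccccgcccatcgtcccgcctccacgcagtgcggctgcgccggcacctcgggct
Ulk2: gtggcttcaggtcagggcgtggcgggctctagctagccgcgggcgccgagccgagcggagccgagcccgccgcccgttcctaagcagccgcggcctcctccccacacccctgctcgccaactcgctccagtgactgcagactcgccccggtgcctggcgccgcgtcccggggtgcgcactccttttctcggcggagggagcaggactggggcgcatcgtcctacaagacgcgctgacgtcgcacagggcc
Of the Ulk1 stretch 16 bases lie in GENCODE exons, and of the Ulk2 stretch 0, but of the Atg14 stretch searched with them 197 do, since its RefSeq start lies inside the GENCODE gene. The stretches had a GC content of 67.2% and 72.8%. The motifs searched, on both strands, were the TFEB and TFE3 target (CLEAR) core TCACGTGA, the E-box CACGTG inside it, the FOXO site GTAAACA, the ETS site CCGGAAG, the CAAT box CCAAT and the GC box GGGGCGGGG. Ulk1 held 1 GC box, read on the other strand, and Ulk2 held no match to any. The GC box was found in 10.5% of 27025 gene promoters of the same length. Of the members, 7 had an entry (Ulk1, Ulk2, Atg13, Atg101, Pik3r4, Atg14 and Uvrag). CCAAT occurred in Pik3r4 and Uvrag (34.5% of all promoters) and the ETS site in Atg101 (7.05%). The CLEAR core (0.803%), the E-box (6.05%) and the FOXO site (3.09%) matched in 0 of the 7. These are matches of letters and no evidence of binding.

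Libraries held 30699408 to 47564440 counted reads. The labelled cell type was checked on marker genes. The 9 markers of CD4 T cells summed to 2906 to 4289 CPM, the counts scaled to the library total, in Atg5-deficient and 2860 to 3187 CPM in wild-type libraries, and of the 2 CD8 markers Cd8a did not exceed 0.165 CPM in any library while Cd8b1 stood at 3.99 to 6.55 CPM. The 11 hepatocyte markers ranged from 48.5 to 890 CPM and from 35.2 to 507 CPM in the same order. The protocols in the labels describe fixed, embedded tissue sections whereas the design text describes sorted cells. Atg5 itself had a lowest, median and highest level of 15.2, 19.6 and 22.5 CPM in Atg5-deficient libraries, against 21.04, 13.4, 15.7, 13.98 and 20.4 CPM in the wild-type libraries. Exons outside the deleted part are counted too, and the labels do not name that part, so this level does not check the genotype.

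No subunit of the initiation complexes passed the test of genotype by edgeR. Ulk1 had the largest positive difference, 24.5% higher in Atg5-deficient libraries, and Atg14 the largest negative one, 16.1% lower. The other 8 genes differed by -8.59% (Uvrag) to 7.25% (Becn1). By edgeR's quasi-likelihood test with Benjamini-Hochberg adjustment over all genes, 0 of 10 passed 0.05, while 6.84% of 17987 tested genes did (4.43% higher and 2.41% lower in Atg5-deficient libraries). At an unadjusted p under 0.05 there were 2 of 10 (Ulk1 and Atg14), beside 23.4% of all genes. DESeq2 and limma-voom each called 1 of the 10, Ulk1, where they called 13.7% and 19.0% of the genes they tested. The groups overlapped in all 10 genes, and did not in 4.86% of tested genes. Log2 fold changes (Atg5-deficient against wild-type) were positive in 4 of 10 and in 49.7% of all genes, with medians of -0.01 and -0.0027. In bulk RNA, a change in the number of cells that express a gene and a change per cell cannot be told apart.

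**Figure D1:**
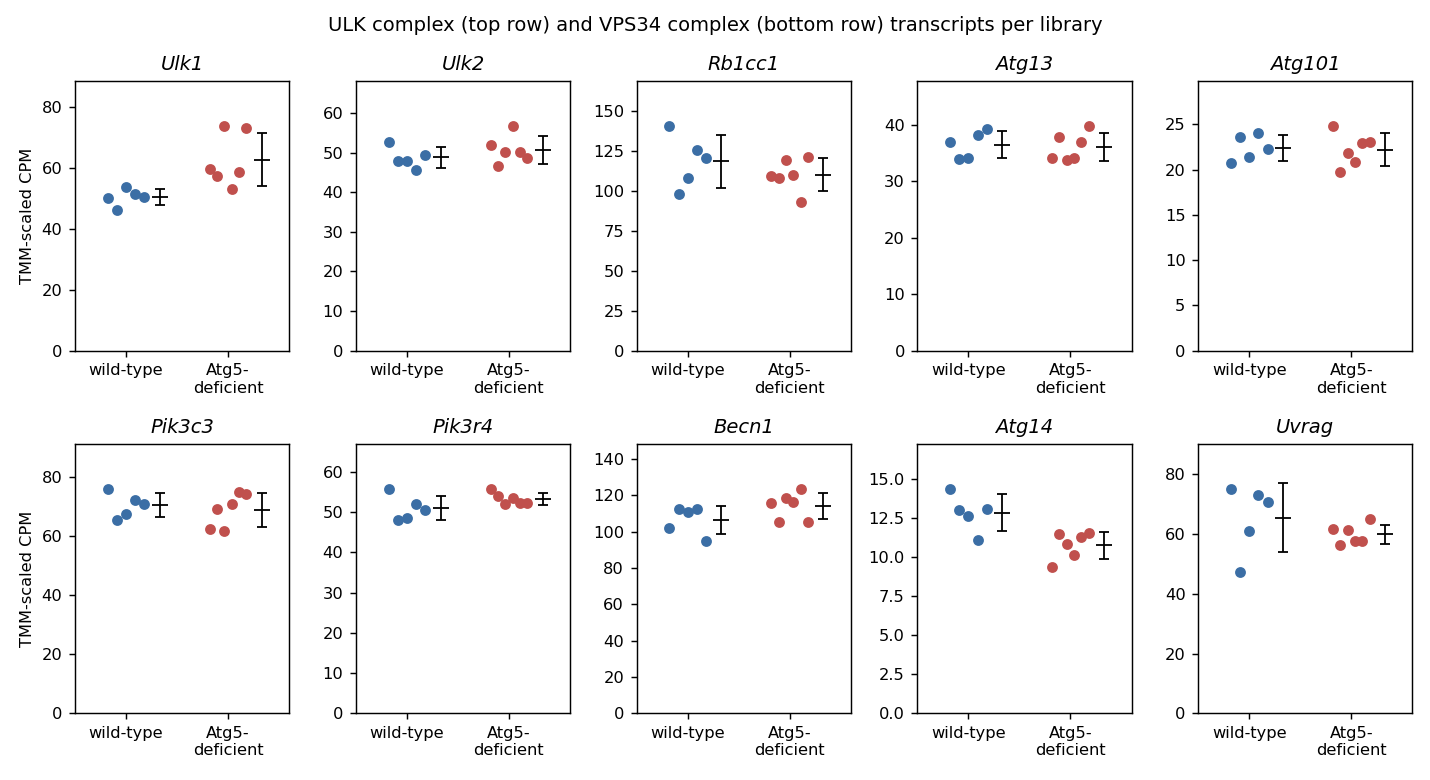
Level of each subunit gene in every library (y axes: TMM-scaled CPM, each from 0; points: libraries, blue wild-type and red Atg5-deficient; black bars: mean ± SD). Ulk1 exceeds its highest wild-type level in 5 of 6 Atg5-deficient libraries and Atg14 has 4 of 5 wild-type libraries above every Atg5-deficient library, while the other genes overlap more widely.

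Ulk1 encodes the main kinase of the complex (chromosome 5, 110784488 to 110810097, minus strand, GRCm38, as for all coordinates of genes here). After TMM scaling, which evens out the composition of libraries and was used for the level of each gene, it had a lowest, median and highest level of 53.3, 59.4 and 73.9 CPM in Atg5-deficient libraries, and 50.1, 46.4, 53.7, 51.6 and 50.4 CPM in wild-type replicates 1 to 5. All but 1 Atg5-deficient library, replicate 4, lay above the highest wild-type library, and replicates 3 (73.9 CPM) and 6 (73.3 CPM) stood well above the other 4. The means were 62.8 ± 8.69 (SD, n = 6) and 50.4 ± 2.68 CPM (SD, n = 5). The log2 fold change was 0.32 (SE 0.10, 95% interval 0.11 to 0.52), with adjusted p = 0.0606 by edgeR. With DESeq2 it was 0.32 (adjusted p = 0.0269) and with limma-voom 0.24 (adjusted p = 0.0475). Leaving out single libraries gave 0.26 to 0.36 by edgeR, and adjusted p = 0.0510 to 0.114, so none of these 11 fits made a call. Among the 8 libraries numbered in sequence it was 0.27 (edgeR, adjusted p = 0.284). That set is smaller, and over all genes it gave 87 higher and 89 lower calls, against 797 and 434 with all libraries. Calls lost in it, here and below, were not separated from the loss of power with fewer libraries. The 6 B cell markers summed to 26.65 CPM in Atg5-deficient replicate 3 and 24.1 CPM in replicate 6, the highest of the 11 libraries, where CD4 T cell markers summed to 2906 and 3594 CPM. Atg5-deficient replicate 5 had the next highest B cell sum, 21.6 CPM, with Ulk1 at 58.9 CPM. No single B cell marker exceeded 7.76 CPM (Pax5) in any library. Over all libraries the B cell sum ran from 7.09 to 26.65 CPM in Atg5-deficient and from 6.91 to 17.1 CPM in wild-type samples. Its part in the level of Ulk1 was not tested.

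Ulk2, the paralog that can replace ULK1 in the complex (chromosome 11, 61775649 to 61855073, minus strand) had a small difference. Its lowest, median and highest level was 46.6, 50.1 and 56.7 CPM in Atg5-deficient libraries, against 52.8, 48.0, 47.95, 45.7 and 49.4 CPM in wild-type libraries. The ranges of the genotypes nearly coincided, with 1 Atg5-deficient library above all wild-type ones. The difference in log2 was 0.06 (SE 0.07, 95% interval -0.10 to 0.21, edgeR, adjusted p = 0.705), and it turned to -0.01 with upper-quartile scaling.

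The balance of the kinases was measured within each library, where it does not depend on the scaling. Wild-type libraries had 0.886 to 1.05 Ulk2 reads per Ulk1 read. Atg5-deficient libraries had a lowest, median and highest ratio of 0.662, 0.831 and 1.07. Of the 6, 5 lay below every wild-type library, and replicate 4 lay above them all. The means were 0.823 ± 0.147 (SD, n = 6) and 0.970 ± 0.0778 (SD, n = 5), a log2 difference of -0.25. It did not pass an exact permutation test over all 462 assignments of the libraries (two-sided p = 0.0693, adjusted p = 0.139 over the 2 ratios tested). Without Atg5-deficient replicate 4 the log2 difference was -0.33 (exact permutation, adjusted p = 0.0159), so that 1 library decided the call. It was the only Atg5-deficient library not below every wild-type one, so leaving it out separated the genotypes fully. The exact test then gives the smallest p it can, and this pass is no separate support for a difference. Atg5-deficient replicate 4 also had the highest sum of the 5 natural killer cell markers, 91.96 CPM against 11.2 to 37.7 CPM in the other 10. Of that sum 84.7 CPM was Eomes, a transcription factor that T cells can express too, while Ncr1, a defining marker, did not exceed 0.289 CPM in any library. The part of Eomes-expressing cells in the ratio was not tested. Per length of merged exons, Ulk2 stood at 0.893 of Ulk1 in Atg5-deficient and 1.05 of it in wild-type libraries.

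The scaffold and adaptors of the ULK complex showed no difference past the threshold in any fit run. Rb1cc1 encodes FIP200, the long scaffold on which the complex assembles (chromosome 1, 6206197 to 6276648, plus strand). Its lowest, median and highest level was 92.8, 109.7 and 121 CPM in Atg5-deficient libraries, against 140.4, 97.7, 108, 125 and 121 CPM in wild-type libraries. Wild-type replicates 1 and 4 lay above every Atg5-deficient library and replicate 2 below 5 of the 6, so the wild-type group spread more widely. The log2 fold change was -0.10 (SE 0.10, 95% interval -0.32 to 0.11, edgeR, adjusted p = 0.568). An antisense gene shares 558 bases of its exons and had 6.11% of its count. Atg13, which joins the kinase to the scaffold and is itself held in check by mTORC1 (chromosome 2, 91674618 to 91710576, minus strand), ran from 33.7 to 39.8 CPM in Atg5-deficient and from 34.0 to 39.3 CPM in wild-type libraries. Atg101, which binds and stabilizes ATG13 (chromosome 15, 101284272 to 101290945, plus strand), ran from 19.7 to 24.8 and from 20.7 to 24.0 CPM in the same order. For both, the genotypes covered nearly the same range. Their log2 fold changes were -0.02 (95% interval -0.19 to 0.15, adjusted p = 0.933) and -0.01 (95% interval -0.20 to 0.18, adjusted p = 0.960) by edgeR, and the sign of each changed when certain single libraries were left out.

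The catalytic core of the VPS34 complexes did not pass the test. Pik3c3 encodes the lipid kinase VPS34 (chromosome 18, 30272747 to 30348126, plus strand). It had a lowest, median and highest level of 61.8, 70.0 and 75.0 CPM in Atg5-deficient libraries, against 76.0, 65.5, 67.4, 72.1 and 70.8 CPM in wild-type libraries. The Atg5-deficient group had 2 libraries below and the wild-type group 1 library above the range of the other genotype. The log2 fold change was -0.03 (SE 0.08, 95% interval -0.20 to 0.14, edgeR, adjusted p = 0.856), and it was 0.00095 with the hepatocyte marker sum as a covariate. Pik3r4, the regulatory subunit VPS15 that VPS34 needs for activity (chromosome 9, 105642978 to 105687657, plus strand), stood at 53.3 ± 1.45 CPM (SD, n = 6) and 51.0 ± 3.06 CPM (SD, n = 5). With a coefficient of variation of 4.43% within the groups it varied least of the 10 genes. A group of 3 wild-type libraries lay below every Atg5-deficient library, and the log2 fold change was 0.07 (SE 0.07, 95% interval -0.08 to 0.21, edgeR, adjusted p = 0.611), or -0.0035 with upper-quartile scaling.

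Becn1 encodes Beclin 1, the subunit through which BCL2 family proteins restrain the complex (chromosome 11, 101285952 to 101302286, minus strand). Its lowest, median and highest level was 105, 116 and 124 CPM in Atg5-deficient libraries, against 102, 112, 111, 112 and 95 CPM in wild-type libraries. In 4 of 6 Atg5-deficient libraries the level exceeded that of every wild-type library, and 2 wild-type libraries lay below every Atg5-deficient one. These 2, replicates 1 and 5, lie outside the 8 libraries numbered in sequence, among which the log2 fold change was 0.06 (edgeR, adjusted p = 0.833). The log2 fold change of 0.10 (SE 0.07, 95% interval -0.06 to 0.26, edgeR, adjusted p = 0.456) was positive in all 20 alternative fits and passed in none. Exons of Becn1 share 3104 bases, 43.9% of their merged length, with Cntd1 on the other strand. Cntd1 had 163 counts over all libraries, 0.358% of those of Becn1. The strand setting of the counting is not stated, so whether this overlap lowered the count of Becn1 and its level per kb was not tested.

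Atg14 and Uvrag encode the subunits that exclude each other and so split VPS34 into complex I, which acts on the forming autophagosome, and complex II, which acts on endosomes and in autophagosome maturation. Atg14 (chromosome 14, 47540893 to 47570649, minus strand) was the least counted member, with 338 to 558 reads per library. Its lowest, median and highest level was 9.36, 11.1 and 11.5 CPM in Atg5-deficient libraries, against 14.4, 13.01, 12.6, 11.1 and 13.1 CPM in wild-type libraries. Wild-type replicate 4 fell among the Atg5-deficient libraries, and the other 4 lay above them all. The means were 10.8 ± 0.870 (SD, n = 6) and 12.8 ± 1.19 CPM (SD, n = 5). The log2 fold change was -0.25 (SE 0.11, 95% interval -0.49 to -0.02, edgeR, adjusted p = 0.182). It was negative in all 20 alternative fits (adjusted p = 0.0887 to 0.542) and passed in none of them, DESeq2 and limma-voom included.

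Uvrag (chromosome 7, 98885021 to 99141141, minus strand) varied most within the groups, with a coefficient of variation of 13.3%. Its lowest, median and highest level was 56.2, 59.5 and 64.9 CPM in Atg5-deficient libraries, against 75.1, 47.4, 61.1, 73.0 and 70.8 CPM in wild-type libraries. All Atg5-deficient libraries sat inside the wild-type range, which had 3 libraries above them and replicate 2 below them. The log2 fold change was -0.13 (SE 0.11, 95% interval -0.36 to 0.10, edgeR, adjusted p = 0.509), and -0.22 without wild-type replicate 2 (edgeR, adjusted p = 0.122). The ratio of Uvrag to Atg14 reads was 5.59 ± 0.585 (SD, n = 6) in Atg5-deficient and 5.14 ± 1.06 (SD, n = 5) in wild-type libraries. Wild-type ratios ran from 3.64 to 6.59 and covered every Atg5-deficient ratio, and the log2 difference of 0.14 did not pass (exact permutation, two-sided p = 0.366, adjusted p = 0.366 over the 2 ratios).

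**Figure D2:**
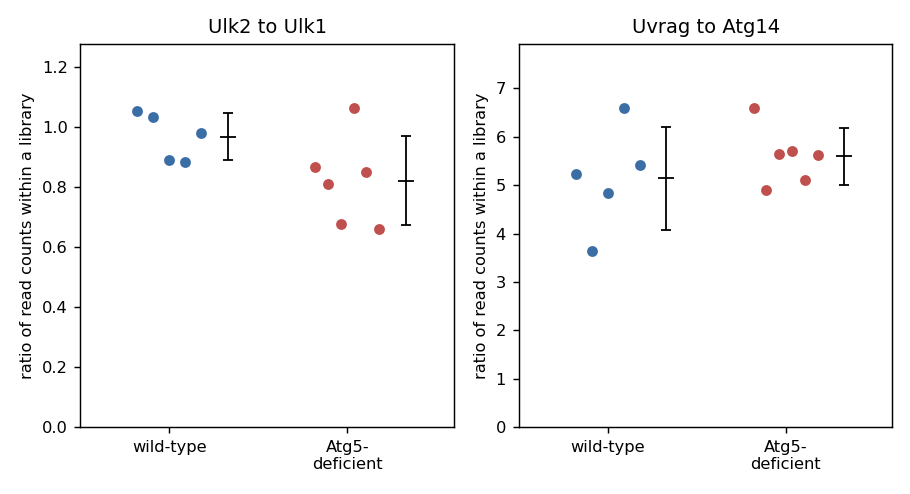
Ratio of read counts within each library for the alternative kinases (left, Ulk2 to Ulk1) and the alternative VPS34 subunits (right, Uvrag to Atg14). Points are libraries and black bars mean ± SD. For the kinases 5 of 6 Atg5-deficient libraries lie below every wild-type library and 1 above them all, whereas the Uvrag to Atg14 ratios of the genotypes overlap throughout.

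The intervals show how large a difference these libraries leave possible. For the 8 genes other than Ulk1 and Atg14 the 95% interval included 0, and none reached past a change of 21.99% in either direction. For Ulk1 it spanned 8.01% to 43.4% higher and for Atg14 1.18% to 28.8% lower in Atg5-deficient libraries, before any adjustment for the number of genes. Replicates of the members lay close together. The coefficient of variation within groups was 4.43% to 13.3% (median 7.34%), while the mean counting error of a library was 1.54% (Rb1cc1) to 4.82% (Atg14). Among the 6120 tested genes whose mean level lay in the same range (11.7 to 114 CPM), the median coefficient of variation was 12.9%. The median size of the log2 fold change, without its sign, was 0.08 in the members and 0.15 in those 6120 genes, of which 9.92% passed.

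**Figure D3:**
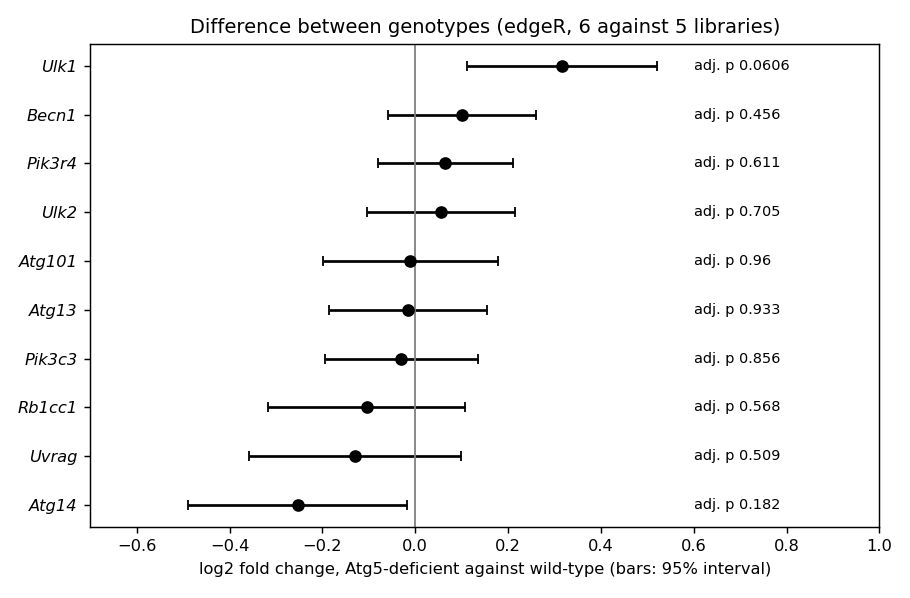
Log2 fold change of each subunit gene (x axis, Atg5-deficient against wild-type; points: edgeR estimates, bars: 95% intervals, text: adjusted p). Ulk1 (0.32) and Atg14 (-0.25) are the genes whose interval does not reach 0, and no adjusted p is under 0.05.

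Levels of different subunits were compared per kilobase of merged exons, as CPM per kb over all 11 libraries. Becn1 (15.7 ± 1.16), Pik3c3 (15.6 ± 1.09) and Atg101 (13.96 ± 0.968, SD, n = 11) were the highest, and their ranges overlapped. Becn1 exceeded Pik3c3 in 6 of 11 libraries, so that this pair was not ordered. Every library had a lower level of Ulk1 (8.81) than of Atg101. Ulk1, Ulk2 (8.34), Atg13 (8.31) and Rb1cc1 (7.75) followed with overlapping ranges. Then came Uvrag (6.91) and Pik3r4 (5.41), where the range of Uvrag overlapped those of Rb1cc1 and Pik3r4. Atg14 was lowest with 2.71 ± 0.336, below Pik3r4 in all 11 libraries and with no overlap of their ranges. The order in the middle depended on the length used. Per kb of the principal transcript, a length chosen after the data were seen, Becn1 (25.3), Pik3c3 (21.4) and Atg101 (17.5) were again highest and Atg14 (3.14) lowest, but Rb1cc1 came next after those 3 (15.0), and Ulk2 (8.68) next to last.

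**Figure D4:**
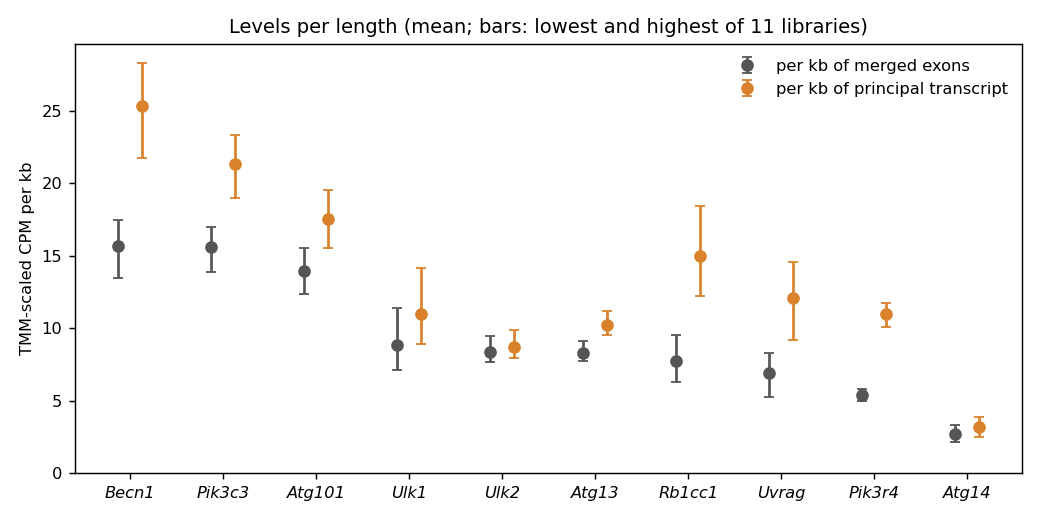
Level of each subunit gene per length (y axis: TMM-scaled CPM per kb; points: mean of 11 libraries, bars: lowest and highest; grey for merged exons, orange for the principal transcript). Becn1, Pik3c3 and Atg101 are highest and Atg14 is lowest with both lengths.

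Subunits that bind each other were not correlated across libraries past the threshold. For 9 such pairs, log2 CPM was compared over the 11 libraries after the mean of each genotype was subtracted. Pearson's r ran from -0.45 (Becn1 and Atg14) to 0.45 (Ulk1 and Rb1cc1), and 0 of 9 passed (permutation within groups, adjusted p = 0.603 to 0.912). Ulk1 and Rb1cc1 had r = 0.45 (permutation p = 0.119, adjusted p = 0.603) and Spearman's rho = 0.56 (permutation p = 0.0741, adjusted p = 0.592), with r = 0.24 without the 2 libraries farthest from the median of Ulk1. Becn1 and Atg14 had r = -0.45 (permutation p = 0.193, adjusted p = 0.603) and rho = -0.42 (permutation p = 0.237, adjusted p = 0.592). Without the 2 libraries farthest from the median of Becn1, r was -0.40.

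Of 11745 other protein-coding genes, those most like Ulk1 over the 11 libraries were Nckap1 (Pearson r = 0.95 of log2 CPM), Ptpn23 (0.94) and Rnf149 (0.92). Nckap1, which encodes a subunit of the WAVE complex of actin regulation, went from 10.2 ± 1.06 (SD, n = 5) to 14.2 ± 2.38 CPM (SD, n = 6) and passed the test (log2 fold change 0.48, edgeR, adjusted p = 0.0461), but not in 9 of the 11 fits that left out a library (highest adjusted p = 0.0994), nor with upper-quartile scaling (0.0907), without the filter (0.093), with the hepatocyte covariate (0.0685) or in the 8 libraries numbered in sequence (0.28). Ptpn23 (0.19, edgeR, adjusted p = 0.215), which encodes an endosomal sorting protein, and Rnf149 (0.18, edgeR, adjusted p = 0.209) did not pass. Those most like Atg14 were Ddx39b, an RNA helicase gene (r = 0.94), Zfp60 (0.93) and Begain (0.92). Of these 3, 0 passed by edgeR (adjusted p = 0.156, 0.0817 and 0.106). With upper-quartile scaling Ddx39b (adjusted p = 0.0431) and Zfp60 (0.0441) passed, with DESeq2 Zfp60 (0.0403), and with limma-voom Zfp60 (0.0252) and Begain (0.0236). These r values are the highest of many and are descriptions only.

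Around the complexes, 5 genes rose and 2 fell by edgeR among 99 tested members of 8 lists of regulators, effectors and relatives, or 7.07%, beside 6.84% of all genes. Counts in the lists below are of edgeR calls, and DESeq2 and limma-voom called further genes. The effector Eea1, an early endosome tether that binds PI3P, rose from 54.4 ± 7.69 (SD, n = 5) to 102 ± 23.9 CPM (SD, n = 6), a log2 fold change of 0.91 (SE 0.15, edgeR, adjusted p = 0.00570). Its lowest Atg5-deficient library (79.5 CPM) stood above its highest wild-type library (65.6 CPM), and the call held in all 11 fits that left out a library. Among the 8 libraries numbered in sequence the log2 fold change was 0.90 and did not pass (edgeR, adjusted p = 0.0524). It was the 1 called gene among 17 PI3P effectors and phosphatases, a list with a median log2 fold change of -0.02. The PI3P sensors of the autophagosome, Wipi1, Wipi2, Wdr45 and Wdr45b, did not pass by edgeR (adjusted p = 0.654, 0.442, 0.184 and 0.816). Of these, limma-voom, which called 19.0% of all genes, called Wdr45 alone (adjusted p = 0.0488), and DESeq2 called none.

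Of 25 tested genes of nutrient and energy control upstream of ULK1, 1 rose, 1 fell and 23 did not pass by edgeR (median 0.06). Over all tested genes 6.84% passed, so these calls do not set the list apart. Ddit4, which encodes the mTORC1 inhibitor REDD1, rose from 71.2 ± 8.45 (SD, n = 5) to 95.04 ± 15.4 CPM (SD, n = 6), a log2 fold change of 0.42 (SE 0.12, edgeR, adjusted p = 0.0461). Sesn1, a sestrin that also restrains mTORC1, fell from 86.5 ± 10.9 (SD, n = 5) to 61.5 ± 10.9 CPM (SD, n = 6), a log2 fold change of -0.49 (SE 0.12, edgeR, adjusted p = 0.0272). The calls of Ddit4 and Sesn1 held in 3 and 5 of the 11 fits that left out a library, where the highest adjusted p was 0.107 (without wild-type replicate 4) and 0.0735 (without wild-type replicate 1). With upper-quartile scaling Ddit4 did not pass (edgeR, adjusted p = 0.0707), and in the 8 libraries neither did Ddit4 (0.0614) nor Sesn1 (0.0639). Their log2 fold changes in those 8 were 0.57 and -0.50.

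Among 16 tested regulators and partners of Beclin 1 and VPS34, Bcl2l1 rose and 15 did not pass by edgeR (median 0.09). At an unadjusted p under 0.05 there were 6 of 16, beside 23.4% of all genes. DESeq2 (13.7% of genes called) also called Sh3glb1 (adjusted p = 0.0117), Tab2 (0.0201), Vmp1 (0.0412) and Rubcnl (0.0199, at 1.87 against 0.712 CPM). Limma-voom (19.0% called) also called Sh3glb1 (adjusted p = 0.0146), Tab2 (0.0126), Vmp1 (0.0284) and Dapk1 (0.015, lower). Bcl2l1 encodes BCL-XL, a survival protein that also binds Beclin 1, and went from 33.4 ± 8.16 (SD, n = 5) to 52.5 ± 8.15 CPM (SD, n = 6), a log2 fold change of 0.65 (SE 0.15, edgeR, adjusted p = 0.0224). The call of Bcl2l1 held in 8 of the 11 fits and was lost without Atg5-deficient replicate 2 (adjusted p = 0.0543) or wild-type replicate 1 (0.057) or 5 (0.0569). It was also lost in the 8 libraries (log2 fold change 0.52, edgeR, adjusted p = 0.11). Among class I and class II PI3K genes, which make other phosphoinositides, 1 rose, 1 fell and 11 of 13 did not pass (median -0.06). Pik3ip1, an inhibitor of class I PI3K, fell from 121 ± 15.6 (SD, n = 5) to 66.7 ± 16.4 CPM (SD, n = 6), with no overlap of the groups (log2 fold change -0.85, SE 0.15, edgeR, adjusted p = 0.00840), and passed in all 11 fits. Pik3cg, the catalytic subunit p110 gamma, rose (0.35, SE 0.10, edgeR, adjusted p = 0.0461) and held in 2 of the 11 (highest adjusted p = 0.104, without wild-type replicate 3). Its call was also lost with upper-quartile scaling (adjusted p = 0.08), without the filter (0.0556) and in the 8 libraries (0.139, with a log2 fold change of 0.39).

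Of 10 tested transcription factors of autophagy genes, Tfe3, which binds the CLEAR motif, rose (log2 fold change 0.35, SE 0.10, edgeR, adjusted p = 0.0433) and 9 did not pass (median 0.01). The call of Tfe3 held in 1 of the 11 fits (highest adjusted p = 0.101, without wild-type replicate 1), and its levels in the genotypes did not overlap. Its call was also lost with upper-quartile scaling (adjusted p = 0.0774), without the filter (0.0933) and with the hepatocyte covariate (0.0509). In the 8 libraries it was lost too (log2 fold change 0.30, edgeR, adjusted p = 0.25). None of the tested ULK paralogs (2), ATG9 and ATG2 lipid supply genes (5) or HOPS and endosomal RAB genes (11) passed by edgeR, with 0, 1 and 2 of them at an unadjusted p under 0.05. Their medians were 0.21, -0.07 and 0.04. Ulk3 (0.04, adjusted p = 0.853) and Ulk4 (0.38, adjusted p = 0.681) were the paralogs tested by edgeR, and Ulk4 overlaps the far more counted Ctnnb1 on the other strand. Atg9b (0.91, adjusted p = 0.123), which overlaps Nos3, and Atg2b (-0.15, adjusted p = 0.350) had the smallest p of the lipid supply genes by edgeR. Rab7 (0.23, adjusted p = 0.127) and Stx17 (-0.22, adjusted p = 0.211) had those of the endosomal list by edgeR. Rab7 passed by edgeR without Atg5-deficient replicate 3 (adjusted p = 0.037). Limma-voom, which called 19.0% of all genes, called Atg9b (adjusted p = 0.0421), Atg2b (0.0282), Rab7 (0.0283) and Rab5c (0.0283). DESeq2 called none of them.

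**Figure D5:**
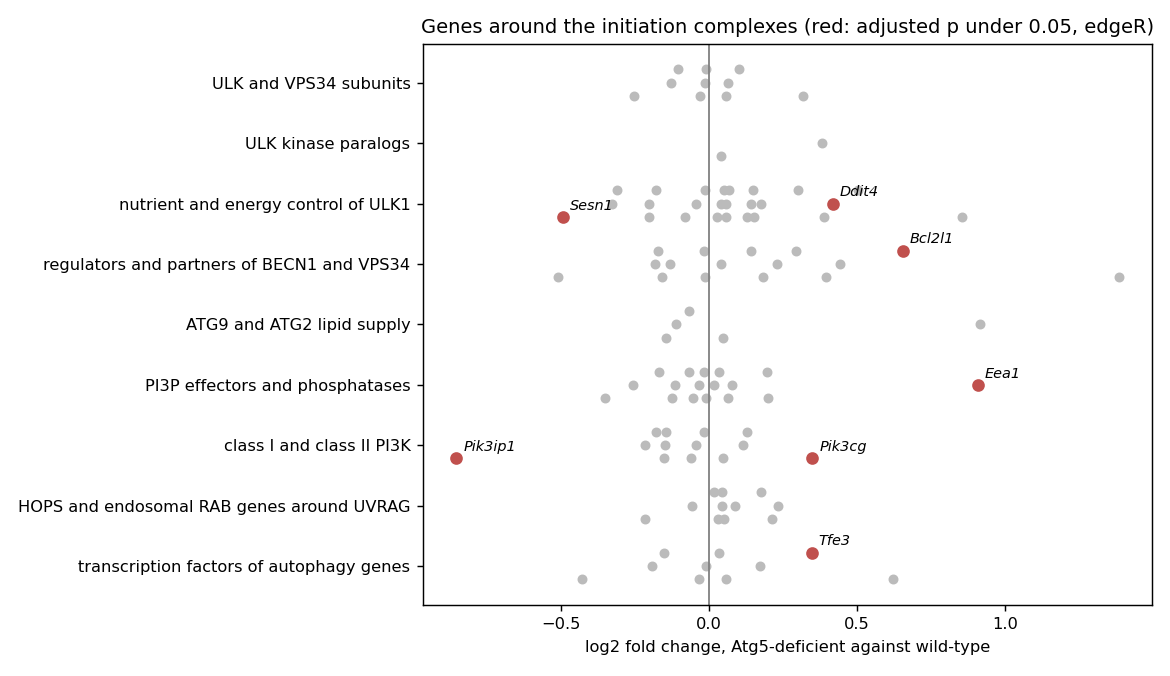
Log2 fold change (x axis, Atg5-deficient against wild-type) of the 10 subunit genes and of 99 tested genes around them, by list (y axis; each point 1 gene, red where the edgeR adjusted p is under 0.05). None of the subunits is red, and the 7 called genes are spread over 5 of the 8 lists, from Pik3ip1 (-0.85) to Eea1 (0.91).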

How the data were processed

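The authors deposited raw read counts by Ensembl gene, 1 column for each of the 11 libraries. The submitters' processing notes name STAR, featureCounts and the build GRCm38. The versions, annotation release, strand setting and treatment of multimapping reads are not stated there. IDs were matched to GENCODE M21 (GRCm38), which named 52125 of 56748 (91.9%), and Ddit3, with 2 IDs, was taken as the one with more reads. Upstream sequences come from RefSeq's table (GRCm38.p6).

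Low-count genes were removed with filterByExpr (minimum count 10 and total 15). After TMM scaling, genotypes were compared by the robust quasi-likelihood test of edgeR, without covariates, and p-values were adjusted (Benjamini-Hochberg, threshold 0.05) over 17987 genes. A library's 3 counts correspond to 0.0631 to 0.0977 CPM. Intervals of a fold change come from the same fit. Genotypes come from the labels, and replicate numbers follow accession order and pair nothing. The text names all members, Atg5, up to 4 called genes per list (otherwise the 2 with the smallest p) and the 3 genes most like the member of smallest p in each complex. The PI3P sensors, overlapping genes and genes called by DESeq2 or limma-voom alone were named outside that rule, after their values were seen. Members and lists were chosen with earlier results of these data known. The tests were checked on simulated data, but with changes larger than those of the members and ratios, so detection of differences of the size seen here was not checked. Alternatives were other scaling, filters, library sizes and covariates, DESeq2, limma-voom, the 8 libraries numbered 75106 to 75113, and each library left out. The versions run were edgeR 4.0.16, DESeq2 1.42.0 and limma 3.58.1 under R 4.3.3. The table held 0 columns of other samples.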

Additional observations from a re-analysis of the deposited data

How the results depend on the processing

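Of 200 alternative values of the 10 members, 183 kept their direction and side of the threshold, 2 passed where the edgeR value had not (Ulk1 with DESeq2 and limma-voom) and 15 changed sign without passing. With upper-quartile scaling, which moved the median of all genes by -0.07 (log2), the log2 fold change was -0.014 for Ulk2, -0.0035 for Pik3r4 and -0.026 for Ulk3. With the hepatocyte marker sum as a covariate it was 0.0017 for Atg13 and 0.00095 for Pik3c3, and among the 8 consecutively numbered libraries 0.0013 for Atg13. Leaving out single libraries gave -0.045 to 0.013 for Atg13, -0.043 to 0.021 for Atg101, -0.056 to 0.00043 for Pik3c3 and -0.0026 to 0.11 for Ulk3. The cause was not tested.

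The Ulk2 to Ulk1 log2 difference ran from -0.33 to -0.19 with single libraries left out, and that of Uvrag to Atg14 from 0.02 to 0.24. The Ulk2 to Ulk1 difference passed without Atg5-deficient replicate 4 alone, where the genotypes were fully separated and p was the smallest the test can give. Among pairs, r became 0.044 for Atg13 and Atg101 with upper-quartile scaling, and in the 8 libraries -0.18 for Ulk1 and Atg13, 0.14 for Becn1 and Pik3c3 and 0.084 for Becn1 and Uvrag. Per kb of principal transcript, chosen after the data were seen, mean CPM per kb was 10.97 for Ulk1, 15.0 for Rb1cc1, 10.2 for Atg13, 17.5 for Atg101, 21.4 for Pik3c3, 10.98 for Pik3r4, 25.3 for Becn1, 3.14 for Atg14 and 12.1 for Uvrag.

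Over all genes, 797 were higher and 434 lower. These counts were 1387 and 934 with DESeq2, 1966 and 1460 with limma-voom and 87 and 89 in the 8 libraries, and upper-quartile scaling gave 584 higher and 685 lower. Leaving out single libraries gave 402 to 1410 higher and 191 to 733 lower genes, the most of both without Atg5-deficient replicate 3. A count moved by over 1.5 times also without Atg5-deficient replicate 1, 2 or 4 or wild-type replicate 1, 3, 4 or 5. No paired analysis was possible because the labels give no replicate numbers.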
